A study of Mus musculus with 3 samples.

Results

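The cells described here are the stromal cells of fetal bone marrow (BM) that carried both Aspn and Postn. The cells were chosen by their measured molecules. In the library of E18.5 BM cells a cell was taken when it had at least 3 Aspn and at least 3 Postn molecules, no Ptprc molecule, fewer than 3 Rgs5 molecules and fewer than 5 molecules of Pecam1 and Kdr together. Aspn encodes asporin and Postn encodes periostin, both secreted matrix proteins of connective tissue. Ptprc encodes the pan-leukocyte antigen CD45, Rgs5 marks mural cells, and Pecam1 and Kdr mark endothelial cells (ECs). The rule took 805 of the 12884 cells of the library (6.25%, 95% interval 5.84 to 6.68) and of the 24875 cells of the series. They made up 34.2% of the 2354 cells without a Ptprc molecule.

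The series holds 3 targeted single-cell libraries from wild-type C57/B6 mice, which are sorted ECs of E18.5 embryos, BM cells of E18.5 embryos and BM cells of adults. From the latter pair, mature haematopoietic cells had been removed with lineage antibodies on magnetic beads, and animals were pooled for each library. For adult BM the authors also describe a removal step with CD45 antibodies, though not specifically for the targeted library. Each group is 1 library, so cells are not replicates and no test between groups was possible. Every interval given is a 95% interval that covers counting error only.

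The Aspn/Postn stromal cells had a median of 255 molecules per cell (32 to 870), against 94 (20 to 6083) in the other 1549 cells without Ptprc. These other cells were the main comparison. They comprised 377 endothelial cells (at least 5 Pecam1 and Kdr molecules), 119 mural cells (at least 3 Rgs5), 148 cells with at least 3 Postn but no Aspn, 5 with at least 3 Aspn but no Postn, 71 with both Aspn and Postn but fewer than 3 molecules of at least 1 of them and 829 that met none of these definitions. The last group was rich in Spp1, Col10a1 and Srgn, which are genes of bone, hypertrophic cartilage and blood cells. E18.5 BM cells shared 113 cell barcodes with the adult library and 58 with the library of sorted ECs, and 9 and 2 of these belonged to Aspn/Postn stromal cells.

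The label of these cells as fibroblast-like could not be checked here. The genes proposed to mark them were chosen with earlier results of these data known, so their shares only describe the cells. Beside the rule, Ccn3 was seen in 95.8% of cells, Wnt11 in 36.5% and Wnt2 in 17.5%. In the Postn cells without Aspn these shares were 58.1%, 21.6% and 0.676%. General fibroblast genes such as Col1a1, Dcn and Pdgfra were not analysed here, so the cells are called Aspn/Postn stromal cells.

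**Figure D1:**
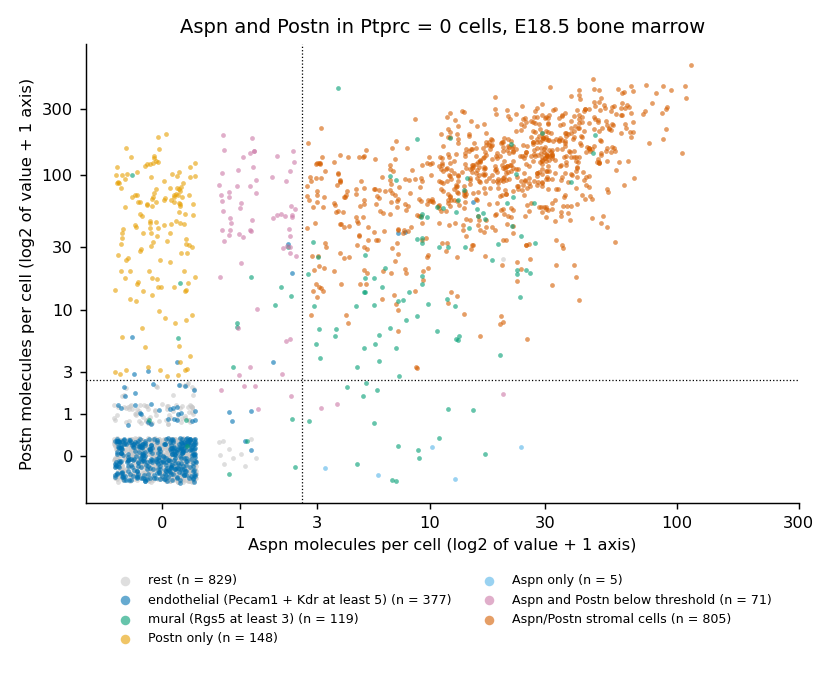
Aspn (x axis) and Postn (y axis) molecules in each E18.5 cell without Ptprc, on log2 axes after adding 1, with small random shifts so that points do not cover each other. Dotted lines mark the minimum of 3 molecules, and colours give the cell groups; the 805 Aspn/Postn stromal cells fill the upper right, where mural cells are also found.

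Aspn had a median of 21 molecules per stromal cell (quartiles 11 and 33) and Postn a median of 108 (64 and 169). These values chose the cells and are not a result. The 40 cells just inside the threshold, whose lower count of Aspn and Postn was exactly 3, had 1101 Ccn3 and 598 Ptn molecules per 10000 panel molecules. The 26 cells just outside it, with a lower count of 2, had 1065 and 619. Wnt11 was at 27.5 (16.6 to 42.9) just inside the threshold and 58.7 (36.8 to 88.9) just outside it. Wnt2 was at 4.34 and 18.7, Rspo2 at 39.1 and 2.67, and Srgn at 43.4 and 174. In the 629 stromal cells with at least 10 molecules of both genes, Wnt2 was at 24.5.

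Wnt proteins are secreted lipid-modified ligands that need the carrier Wls to leave the cell and bind frizzled receptors on target cells. R-spondins raise the number of frizzled receptors on a cell by binding Lgr receptors, whereas Dickkopf proteins such as Dkk2 act on the Lrp co-receptors. In BM, stromal cells and vessels release factors such as Kit ligand (Kitl) and Cxcl12, on which haematopoietic stem and progenitor cells depend.

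Wnt2 and Wnt9a were the ligands with the highest ratios to the other cells and were often seen in the same stromal cells, so their promoters are shown. The panel counts Wnt2 through transcript ENSMUST00000010941.5, whose gene spans chr6:17988940-18030585 on the minus strand of GRCm38, and Wnt9a through ENSMUST00000108783.3, with a gene at chr11:59306930-59333552 on the plus strand. Sequences are from RefSeq for GRCm38.p6, at chr6:18030396-18030695 (minus strand) and chr11:59306680-59306979 (plus strand), written 5′ to 3′ over 300 bases. The Wnt2 window reaches further into its gene span given above than the Wnt9a window does. The windows are thus placed differently against the starts of these spans. Capitals mark the GC box GGGCGG or its reverse complement.
Wnt2: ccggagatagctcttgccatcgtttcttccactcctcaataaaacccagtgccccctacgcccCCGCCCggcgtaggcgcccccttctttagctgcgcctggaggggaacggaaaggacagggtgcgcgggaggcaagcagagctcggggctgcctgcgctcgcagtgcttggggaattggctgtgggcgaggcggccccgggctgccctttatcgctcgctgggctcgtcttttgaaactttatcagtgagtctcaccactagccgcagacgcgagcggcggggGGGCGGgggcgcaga
Wnt9a: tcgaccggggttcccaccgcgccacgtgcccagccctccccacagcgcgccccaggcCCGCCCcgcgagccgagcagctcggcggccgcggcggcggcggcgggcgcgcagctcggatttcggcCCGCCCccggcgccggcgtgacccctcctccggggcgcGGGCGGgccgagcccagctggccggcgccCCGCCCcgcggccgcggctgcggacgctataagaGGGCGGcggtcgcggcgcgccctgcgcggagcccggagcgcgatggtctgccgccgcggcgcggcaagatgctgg
The Wnt2 window held 2 GC boxes at a GC content of 65.7%, and the Wnt9a window held 5 at 83.3%. Of all 32851 promoter windows of the same length, 35.7% held a GC box on either strand. The TATA box letters TATAAA were in neither window on either strand and in 13.6% of all windows. These matches are descriptions of the sequence and do not show that a factor binds there.

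Levels are given as molecules per 10000 molecules of the panel. Primers differ between targets, so levels of one target are compared between cells and not with other targets. The 6 targets of the rule gave 55.5% of the molecules of the stromal cells but 11% of those of the other cells. A ratio over all panel molecules is therefore lower than one over molecules without these targets. Ratios are over all panel molecules unless stated otherwise, and for many targets the other ratio is also given. Over the 95 targets outside the rule with at least 20 molecules in both groups together, the median log2 ratio was -1.23 over all panel molecules and -0.24 without the rule targets. At least 2-fold higher in the stromal cells were 19 of the 95 targets (20%), and at least 2-fold lower were 52 (54.7%). Without the rule targets in the denominator, 31 (32.6%) were higher and 37 (38.9%) lower.

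Matrix and matricellular genes other than those of the rule were higher in the stromal cells. The matrix list held 8 targets, but these included the secreted factors Ptn, Dkk2 and Dkk3, which are given again below. Of the 8, 7 were at least 2-fold higher in the stromal cells and none was lower (8 and 0 without the rule targets). The median ratio was 4.14 against 0.425 over all 95 targets, of which 20% were higher. These values are therefore not of matrix genes alone. Ccn3, a matricellular protein of the CCN family, was at 856 per 10000 in the stromal cells and 128 in the other cells, a ratio of 6.67 (6.45 to 6.91). It was seen in 95.8% of the stromal cells with a median of 17 molecules.

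Fbn1, which encodes the microfibril protein fibrillin-1, was at 92.2 and 13.7 per 10000, a ratio of 6.71 (6.04 to 7.47). Vcan, the large proteoglycan versican, was at 382 and 88.1 with a ratio of 4.34 (4.15 to 4.53). The ratio was 9.61 (6.91 to 13.7) for Cilp, a cartilage intermediate layer protein, 3.95 for Ecm1 and 2.13 for the elastic fibre protein Fbln5. Mgp, the matrix Gla protein that limits calcification, stood out less, with a ratio of 1.53 over all panel molecules and 3.05 without the rule targets. Cilp was uneven among the stromal cells, since 11.7% of cells had a molecule and 10 cells held 40.1% of all Cilp molecules.

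**Figure D2:**
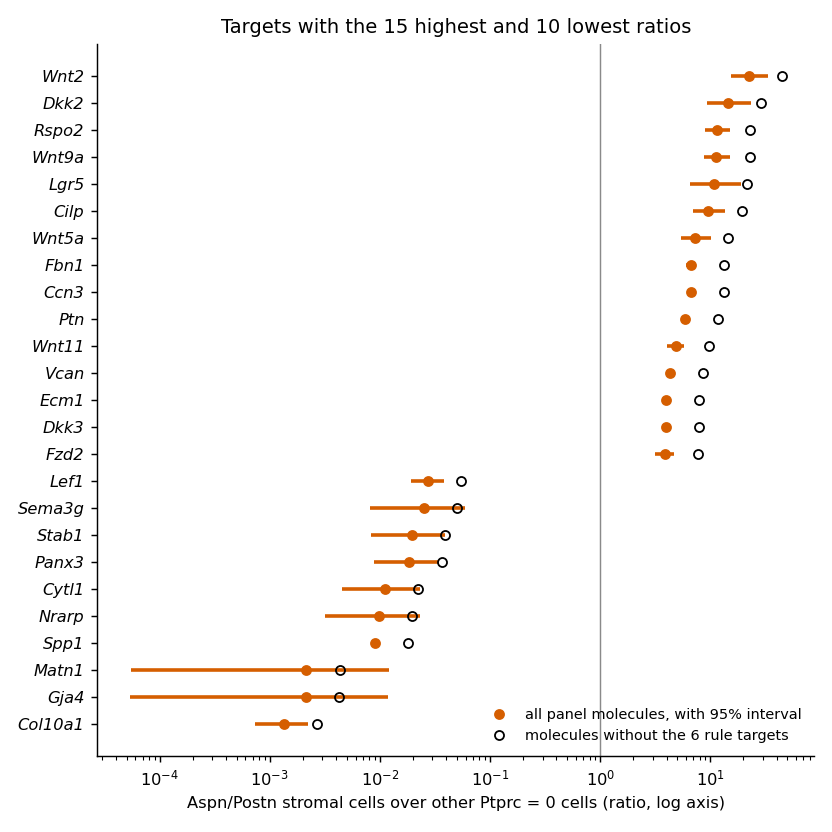
Ratio of Aspn/Postn stromal cells to other Ptprc = 0 cells (x axis, log scale) for the 15 targets with the highest and the 10 with the lowest ratio outside the rule. Filled points are over all panel molecules with 95% counting intervals, and open points leave the 6 rule targets out of the denominator; Wnt2 is highest at 22.3 and Col10a1 lowest at 0.00133, and no target shown changes side of 1.

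Wnt ligands were also higher in the stromal cells than in the other cells. Summed over the 16 ligands listed for the library, 2054 molecules in the stromal cells and 739 in the other cells gave a level of 92.8 per 10000 (88.8 to 96.9) and of 24.1 (22.4 to 25.9). The ratio was 3.86 (3.54 to 4.20). Without the rule targets in the denominator it was 7.70. In the stromal cells, 11 of the 16 ligands had a molecule. Of the 8 ligands with enough molecules, 4 were at least 2-fold higher (Wnt2, Wnt9a, Wnt5a and Wnt11) and 2 at least 2-fold lower (Wnt4 and Wnt6). The counts were 6 and 1 without the rule targets. Over all 95 targets, 20% were higher and 54.7% lower, or 32.6% and 38.9% without the rule targets.

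Wnt2, a ligand known to act through β-catenin, had 483 molecules in the stromal cells and 30 in the other cells, which is 21.8 per 10000 (19.9 to 23.8) against 0.977 (0.659 to 1.39). The ratio was 22.3 (15.4 to 33.5), the highest of the 95 targets. Of the 621 Wnt2 molecules of the library, 77.8% were in the stromal cells. A further 96 were in cells that had Aspn and Postn together with Ptprc, 18 in mural cells and 8 in the 71 cells with fewer Aspn or Postn molecules, whereas neither the endothelial cells nor the 829 remaining cells had any, with upper limits of 0.973 and 0.209 per 10000.

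Wnt9a was at 24.1 per 10000 in the stromal cells and 2.12 in the other cells, from 533 and 65 molecules, a ratio of 11.4 (8.78 to 15). Wnt5a, best known for signalling without β-catenin, was at 11.7 and 1.60 with a ratio of 7.30 (5.36 to 10.1). The stromal cells held 71.6% of the Wnt9a and 73.3% of the Wnt5a molecules of the library. These ligands were therefore found mostly in these cells, which made up 6.25% of the cells of the library. Being deeper, they held a larger share of its panel molecules, 221425 of 1837897.

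Wnt11, another ligand known mainly for signalling without β-catenin, was at 25.2 and 5.21 per 10000 with a ratio of 4.83 (4.04 to 5.79), and 55.5% of its molecules were in the stromal cells. It extended further than Wnt2 into the neighbouring groups, with 22.2 per 10000 in the Postn cells without Aspn, where Wnt2 was at 0.978. The ratio of stromal cells to these Postn cells was 1.13 (0.881 to 1.48) for Wnt11 and 22.3 (7.58 to 108) for Wnt2.

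Other ligands were not set apart in this way. Wnt5b was at 6.50 per 10000 in the stromal cells and 5.44 in the other cells, and its ratio of 1.20 (0.950 to 1.5) did not differ from 1 beyond counting error, although it was 2.39 without the rule targets. Wnt4 was at 1.63 and 6.12 with a ratio of 0.266, and Wnt6 at 0.181 and 1.33 with a ratio of 0.135 (0.0352 to 0.374). These ratios were 0.530 and 0.270 without the rule targets. Of the 41 Wnt6 molecules of the other cells, 31 were in the 148 Postn cells without Aspn. Wnt10b had 25 molecules in each group, and Wnt2b, Wnt10a and Wnt1 had 2 to 7 molecules in the stromal cells.

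A ligand molecule was seen in 604 of the 805 stromal cells (75%), and 306 (38.0%) had 2 or more ligands. Because deeper cells show more targets, shares were also taken after each cell was thinned to 50 molecules. Then 32.0% of 801 stromal cells (28.7 to 35.3) had a ligand molecule, against 25.2% of the Postn cells without Aspn, 8.47% of mural cells and 1.99% of endothelial cells. The interval of the Postn cells (18.1 to 33.4) overlapped, and after thinning to 100 molecules the shares were 50.8% and 51.9%, so no order of these groups can be read. All cells with Ptprc together held 82.4% of the Wnt6 molecules of the library. Shares were taken in the 10353 of them that did not have at least 3 Aspn and 3 Postn molecules. There the thinned share was 3.64% at a median depth of 90 molecules, and 6.33% without thinning. For Wnt2 alone the thinned share was 6.74% in the stromal cells and 0.0600% in these Ptprc cells. The 177 cells with Aspn, Postn and Ptprc, left out of that share, held 96 of the 108 Wnt2 molecules of all cells with Ptprc. How far free RNA adds to these shares was not tested.

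**Figure D3:**
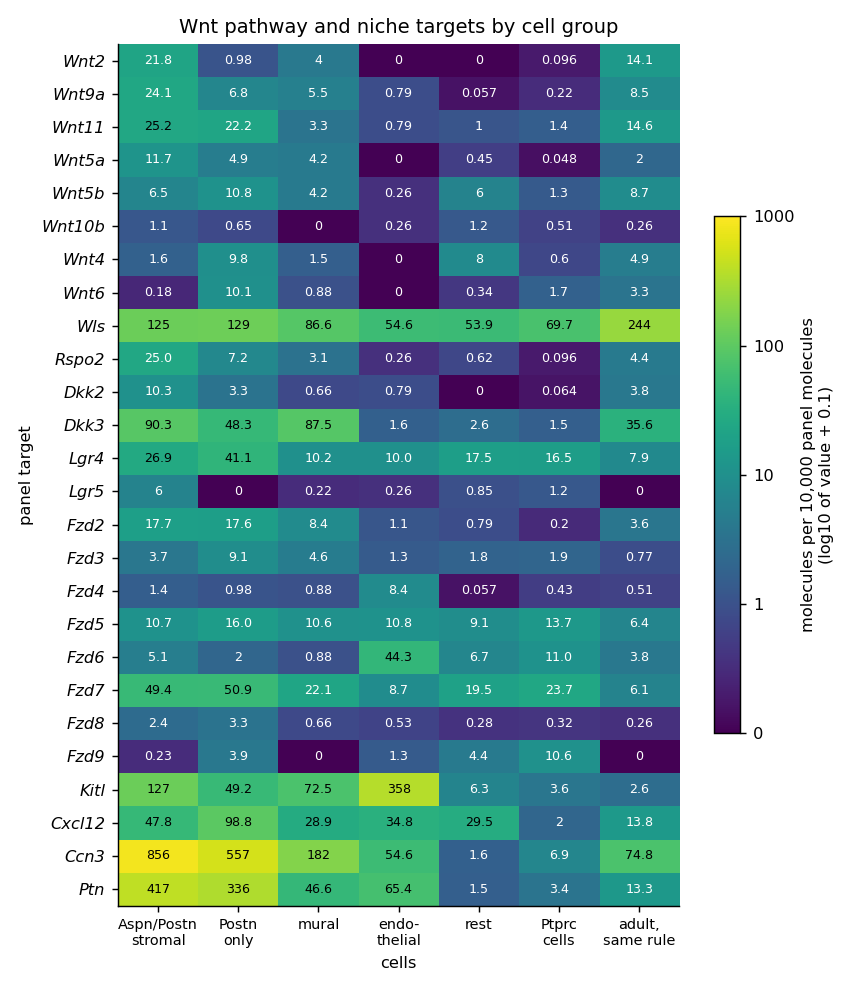
Molecules per 10000 panel molecules (number and colour, log10 scale after adding 0.1) of Wnt pathway and niche targets in the Aspn/Postn stromal cells, in other cell groups of the E18.5 library and in the 47 adult cells that met the same rule. Wnt2, Wnt9a, Rspo2 and Dkk2 are highest in the Aspn/Postn stromal cells, whereas Wls and Fzd5 have molecules in every group.

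Wls, the carrier that ligand-secreting cells need, was at 125 per 10000 in the stromal cells and 71.0 in the other cells, a ratio of 1.75 (1.66 to 1.86), and of 3.5 without the rule targets. The level was 129 in the Postn cells without Aspn. It was seen in 88.0% of the stromal cells with a median of 3 molecules.

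Secreted modulators of the pathway were higher in the stromal cells. Of the 8 listed, 3 had enough molecules, and all 3 were at least 2-fold higher under both denominators. Of all 95 targets, 20% were higher, or 32.6% without the rule targets. Dkk2 was at 10.3 per 10000 in the stromal cells and 0.716 in the other cells, a ratio of 14.4 (9.31 to 23.5). Rspo2, an R-spondin, was at 25 and 2.18 with a ratio of 11.4 (8.87 to 15). Dkk3, a divergent member of the Dickkopf family, was at 90.3 and 22.9 with a ratio of 3.94 (3.61 to 4.30), but mural cells had a similar level of 87.5. The stromal cells held 76.3% of the Dkk2 and 74.3% of the Rspo2 molecules of the library.

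The frizzled receptors bind the ligands at the cell surface. Summed over 8 of them, the level was 90.7 per 10000 in the stromal cells and 56.8 in the other cells, a ratio of 1.60 (1.5 to 1.70), and 3.19 without the rule targets. Fzd2, Fzd8 and Fzd7 had ratios of 3.86 (3.17 to 4.71), 3.40 (2.04 to 5.87) and 2.07 (1.88 to 2.28). Fzd7 was the frizzled receptor seen in most stromal cells (66.6%), and its level of 49.4 per 10000 was close to the 50.9 in Postn cells without Aspn. Fzd3, Fzd4 and Fzd5 had intervals of the ratio that included 1 over all panel molecules, and ratios of 2.55, 2.16 and 2.01 without the rule targets.

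Fzd6 had a ratio of 0.520 over all panel molecules and 1.04 without the rule targets, so that its direction depended on the denominator. Its level was 44.3 per 10000 in endothelial cells and 5.06 in the stromal cells. Fzd9 was lower in the stromal cells, at 0.226 against 3.09 per 10000, a ratio of 0.0730 (0.0232 to 0.176). Among the R-spondin receptors, Lgr5 had a ratio of 10.8 (6.48 to 19.0) with 132 molecules in 79 stromal cells, and Lgr4 a ratio of 1.47 (1.31 to 1.66), or 2.94 without the rule targets. Lgr5 was not limited to stroma, since 52.7% of its molecules in the library were in cells with Ptprc.

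Genes inside the receiving cell were not higher as a list. Of 7 tested signal transduction targets none was at least 2-fold higher and 3 were lower over all panel molecules, with 1 higher and 1 lower without the rule targets. The share lower, 3 of 7, was below the 54.7% over all targets. Lef1, a transcription factor and frequent Wnt target, was at 1.63 per 10000 in the stromal cells and 59.1 in the other cells, a ratio of 0.0275 (0.0192 to 0.0383). Within the other cells it was at 1.33 in mural cells and 95.1 in the 829 remaining cells. In the latter, Srgn was seen in 76.5% of cells thinned to 50 molecules. The ratio thus depends on the cells compared. Both targets on the list of Wnt target genes, Ccnd1 and Myc, were at least 2-fold lower, with ratios of 0.471 and 0.172. Ccnd1 was at 0.940 without the rule targets, and both genes also follow cell division. Their summed level was 110 per 10000 in the stromal cells, 89.0 in mural cells and 260 in the Postn cells without Aspn. It was 480 in the 829 remaining cells and 686 in endothelial cells.

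The niche list held 5 targets, among them the receptor Lepr and Cp, and 1 was at least 2-fold higher and 2 lower (3 and 1 without the rule targets). Over all 95 targets, 20% were higher and 54.7% lower, or 32.6% and 38.9% without the rule targets. Over all panel molecules the niche count therefore did not stand out from all targets. Ptn, which encodes the growth factor pleiotrophin, was at 417 per 10000 in the stromal cells and 70.4 in the other cells, a ratio of 5.93 (5.65 to 6.21), and was seen in 96.5% of the stromal cells. Kitl was at 127 and 66.6 with a ratio of 1.90 (1.79 to 2.01), and of 3.79 without the rule targets. Its highest level was in endothelial cells at 358. The 2 Kitl amplicons had 1409 and 1393 molecules in the stromal cells, so they appear to count the same molecules and the interval of their sum is too narrow.

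Cxcl12, a chemokine that holds stem cells in the marrow, was at 47.8 per 10000 in the stromal cells and 38.4 in the other cells, a ratio of 1.25 (1.15 to 1.35). Across the settings tried this ratio lay between 0.762 and 2.49, and Postn cells without Aspn had a higher level of 98.8. Lepr, the receptor that marks adult reticular cells, had 37 molecules in all stromal cells, or 1.67 per 10000, with a ratio of 0.446 (0.299 to 0.652), and of 0.891 without the rule targets.

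All 4 cell cycle targets were at least 2-fold lower in the stromal cells, against 54.7% of all 95 targets (38.9% of all without the rule targets). Their summed level was 179 per 10000 against 798 in the other cells, a ratio of 0.224 (0.216 to 0.231), and 0.447 without the rule targets. Within the other cells the level was 1100 in the 829 remaining cells, 749 in endothelial cells and 332 in the Postn cells without Aspn. In mural cells it was 146, below that of the stromal cells. A molecule of Top2a, a topoisomerase of dividing cells, was seen in 26.6% of the stromal cells, and of the proliferation marker Mki67 in 22.5%. After thinning to 100 molecules, 69.4% of cells with Mki67 also had Top2a, against 8.81% of cells without it. The other cells include blood cells in which no Ptprc molecule was seen. When the other cells were limited to the 610 without Srgn, the ratio of the cell cycle gene Ccne1 was 1.0 in place of 0.183.

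Most markers of bone, endothelial and blood cells were lower in the stromal cells. Of 7 osteoblast targets 6 were at least 2-fold lower, as were all 9 tested endothelial targets, 3 of 5 cartilage targets and 3 of 4 tested blood targets. Without the rule targets in the denominator these counts were 6, 7, 3 and 2. Over all 95 targets 54.7% were lower, or 38.9% without the rule targets, so the cartilage count is near that share. Cells with at least 5 Pecam1 and Kdr molecules were placed among the other cells by the rule. The endothelial count was thus largely set by the rule and is not a result. Spp1, which encodes osteopontin, was at 18.9 per 10000 against 2081, and 92.3% of its 418 molecules were in 10 cells. Mmp13, a collagenase of bone and hypertrophic cartilage, had 97.9% of its molecules in 10 cells. The smooth muscle genes Acta2 and Tagln were seen in 13.5% and 10.4% of the stromal cells, and 10 cells held 73.0% and 70.5% of their molecules. Notch3, the other mural target, was seen in 32.0% of the stromal cells. Bglap, Bglap2 and Bglap3 are near-identical copies, so their separate counts are uncertain.

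Summed over the lists without the rule targets, blood markers were at 17.4 per 10000 in the stromal cells. They were at 2543 in cells with Ptprc other than the 177 with Aspn and Postn. Endothelial markers were at 22.7 against 1573 in endothelial cells and 25.6 in the 829 remaining cells. Mural markers were at 92.9 against 5258 in mural cells and 42.1 in the Postn cells without Aspn, osteoblast markers at 74.1 and cartilage markers at 44.4. At least 10 Acta2 molecules were in 12 stromal cells, and at least 10 Spp1 and at least 10 Mmp13 in 3 each. Whether these cells are joined barcodes was not tested.

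The Wnt ligands were not spread evenly among the stromal cells. Wnt2 was seen in 141 of the 805 cells with a median of 3 molecules in these, while Wnt9a, seen in 290 cells, and Wnt11, seen in 294, had a median of 1. After thinning to 100 molecules, Wnt9a was seen in 36.3% (26.4 to 47) of the 91 cells with Wnt2 and in 16.7% (14 to 19.7) of the 677 without. Ecm1 was seen in 61.5% and 36.6%. In contrast, Cxcl12 was seen in 9.89% of cells with Wnt2 and 31.2% without, Acan in 3.30% and 15.4%, and Col2a1 in 2.20% and 12.0%. Acan and Col2a1 encode the main proteoglycan and collagen of cartilage. These shares describe cells of 1 library.

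**Figure D4:**
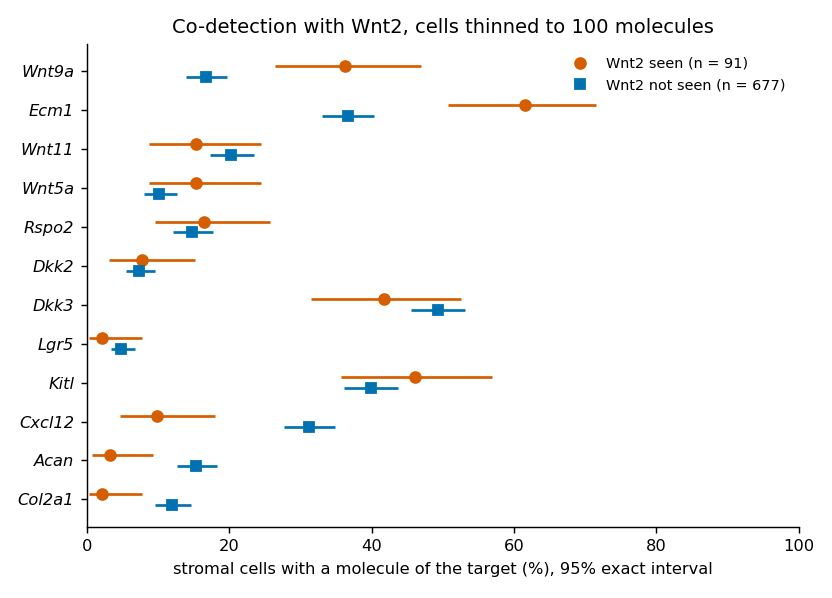
Share of Aspn/Postn stromal cells with a molecule of each target (x axis, percent, with 95% exact intervals), split by whether Wnt2 was seen, after thinning to 100 molecules. Wnt9a and Ecm1 are seen more often, and Cxcl12, Acan and Col2a1 less often, among the 91 cells with Wnt2.

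The same split by pooled molecules of all 805 cells gave 231 Ecm1 molecules per 10000 in the cells with Wnt2 and 94.6 in those without, a ratio of 2.44 (2.26 to 2.64). For Fbn1 the levels were 178 and 68.1 with a ratio of 2.62 (2.40 to 2.86), and for Cxcl12 they were 13.9 and 57.5 with a ratio of 0.242 (0.186 to 0.309). Wnt11 went with Cxcl12, which was seen in 39.7% of thinned cells with Wnt11 and 25.9% without. Wnt5a was seen in 34.3% of cells with Lgr5 and 9.69% of cells without, and Kitl in 59.0% of cells with Wnt5a and 38.4% without. The cells with Acan more often had Col2a1 (28.0% against 8.02%) and less often Kitl (17.8% against 44.3%). The Aspn/Postn stromal cells were thus not uniform in their ligands, niche factors or cartilage genes.

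Depth went along with part of this variation. When the stromal cells were ordered by depth, Wnt2 was at 10.2 per 10000 (7.35 to 13.9) in the shallowest 269 cells and 27.9 (24.9 to 31.1) in the deepest 268. Top2a was at 37, 59.1 and 76.5 in the shallowest, middle and deepest cells. Cxcl12 went the other way, at 101, 52.3 and 26.2, as did Wnt11 at 38.5 (32.6 to 45) in the shallowest and 17.5 to 22.7, as an interval, in the deepest cells. Wnt9a was at 25.5, 22.3 and 24.6 and Wls at 127, 120 and 126, with overlapping intervals. The part of depth in the split by Wnt2 was not tested beyond the thinning.

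Wnt ligands were also seen in the groups nearest to the rule. The 71 cells with fewer Aspn or Postn molecules had a summed ligand level of 78.8 per 10000 (64.2 to 95.7), and the ratio of stromal cells to them was 1.18 (0.964 to 1.45). In the Postn cells without Aspn the level was 66.9, and the ratio was 1.39 (1.20 to 1.61), or 2.30 without the rule targets. Ccn3 was at 557 and Ptn at 336 in these Postn cells, with ratios of 1.54 (1.46 to 1.62) and 1.24 (1.16 to 1.33), and of 2.54 and 2.05 without the rule targets. They differed in bone and cartilage genes, since their osteoblast targets summed to 2473 per 10000 and their cartilage targets to 602. Lgr5 was not seen in them, with an upper limit of 1.20 per 10000. Mural cells had a summed ligand level of 24.1, and endothelial cells of 2.37 from 9 molecules.

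In adult BM, 47 cells met the same rule, or 0.591% of that library (0.435 to 0.786). Cells without a Ptprc molecule made up 79.0% of the adult library and 18.3% of the E18.5 library. Library, preparation and depth differed along with stage, and their parts cannot be told apart. The adult cells had a median of 577 molecules (67 to 9066), and the 3 deepest held 32.7% of their molecules. Of 87 tested targets, 36 (41.4%) were at least 2-fold higher at E18.5 and 32 (36.8%) at least 2-fold lower. Without the rule targets these counts were 49 (56.3%) and 23 (26.4%), and the median log2 ratio moved from 0.40 to 1.35.

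Of the 5 tested targets of the niche list, 4 were at least 2-fold higher at E18.5 and 1 lower, against 41.4% and 36.8% of all targets. The lower one was Cp, for which 49 molecules were counted in the adult and 1 in the E18.5 cells. Cxcl12 had a ratio of 3.45 but of 0.394, 0.737 and 0.392 with RSEC-adjusted molecules, raw molecules and a minimum of 2 Aspn and Postn. Kitl was at 127 per 10000 at E18.5 and 2.56 in the adult cells, a ratio of 49.4 (26.8 to 103), with molecules in 47.3% of E18.5 and 10.6% of adult cells. Ptn was at 417 and 13.3 with a ratio of 31.3 (23.9 to 42.0), and it was seen in 96.5% of E18.5 and 27.7% of adult cells. Ccn3 was at 856 and 74.8 with a ratio of 11.4 (10.2 to 12.9). The summed cell cycle targets were at 179 and 9.48, a ratio of 18.8 (13.6 to 26.8). Fzd7 was at 49.4 and 6.15 with a ratio of 8.04 (5.37 to 12.6).

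Wnt ligands were present in the adult cells too. Their summed level was 92.8 per 10000 at E18.5 and 57.4 in the adult cells, a ratio of 1.62 (1.41 to 1.86), or 3.14 without the rule targets. After thinning to 50 molecules the ratio was 0.747, so the order depended on how deep cells were weighted. A ligand molecule was then seen in 32.0% of E18.5 and 40.4% (26.4 to 55.7) of adult cells. Wnt2 was at 21.8 and 14.1 with a ratio of 1.55 (1.17 to 2.09), or 3.01 without the rule targets, and was seen in 17.5% of E18.5 and 17.0% of adult cells. Of the adult Wnt2 molecules, 72.7% were in 3 cells. Wnt11 was at 25.2 and 14.6, and Wnt9a at 24.1 and 8.45. Wnt5a was at 11.7 and 2.05, from only 8 adult molecules, with a ratio of 5.69 (2.84 to 13.3).

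**Figure D5:**
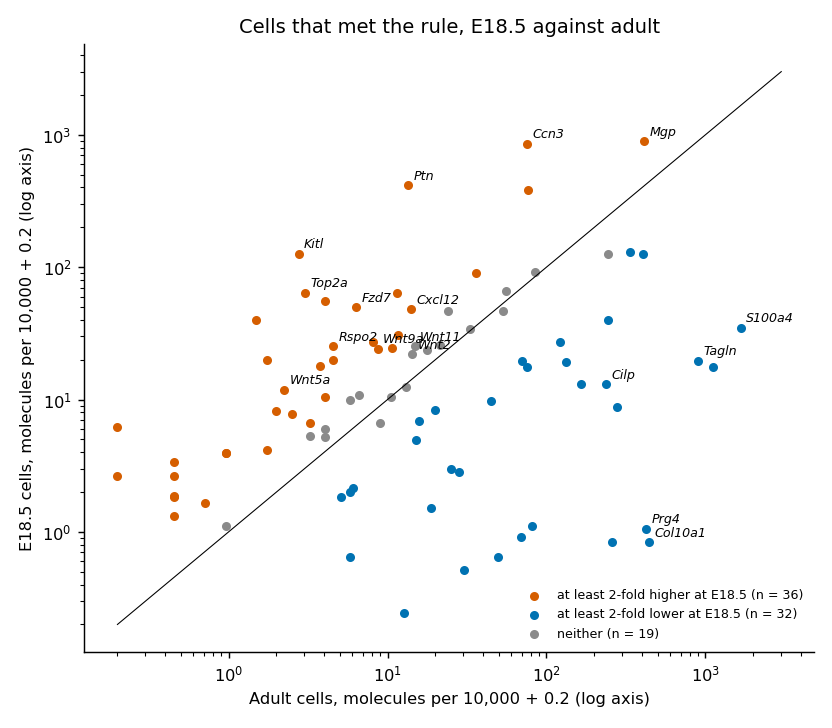
Molecules per 10000 panel molecules after adding 0.2 in the 47 adult cells (x axis) and the 805 E18.5 cells (y axis) that met the same rule, both on log scales, for 87 targets. The line marks equal levels; Kitl, Ptn and Ccn3 lie above it, Tagln, S100a4, Prg4 and Cilp below it, and the adult Col10a1 value comes almost wholly from 1 cell.

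All 7 osteoblast targets, all 4 tested cartilage targets and 2 of 3 mural targets were at least 2-fold lower at E18.5, against 36.8% of all targets. This did not hold throughout without the richest cell of each group, when the ratio was 3.45 for Mmp13 and 5.2 for Acan. S100a4 was at 34.7 per 10000 at E18.5 and 1673 in the adult cells, where 80.9% of cells had a molecule. Tagln was at 19.4 and 901, a ratio of 0.0215 (0.0194 to 0.0238), with molecules in 10.4% of E18.5 and 55.3% of adult cells. Cilp was at 12.8 and 238. Ecm1 was at 124 and 404. Prg4, which encodes the joint lubricant lubricin, was at 0.858 and 422, but 1 adult cell held 1011 of its 1648 molecules. For Col2a1 and Col10a1, 1 adult cell held 4310 of 4331 and 1719 of 1720 molecules, and without the richest cell of each group the Col2a1 ratio was 2.36 in place of 0.0158.

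The adult cells were also set against the 6231 other Ptprc = 0 cells of their own library. Of 104 tested targets, 35 (33.7%) were at least 2-fold higher and 31 (29.8%) at least 2-fold lower in the adult Aspn/Postn cells. Wnt2 had a ratio of 24.2 (17.9 to 32.2) there, beside 22.3 at E18.5.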

How the data were processed

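Expression was measured in single cells with a custom amplicon panel. The authors processed the reads, per the file headers, with the BD Targeted Rhapsody Analysis Pipeline 1.8. It counts molecules by unique molecular identifier, and the deposited files hold counts of reads and molecules, raw and after RSEC and DBEC error correction, with no normalization. DBEC-adjusted counts were used, and they made up 42.1% of raw molecules in the stromal cells and 39.8% in the other cells. Amplicons of a target were summed, which gave 120 targets from 131 amplicons. A minimum of 20 molecules per cell removed no cell. No doublet caller was run. Some targets of the panel are not reported here.

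Members and gene lists were chosen with earlier results of these data known. Ratios have exact conditional binomial intervals, levels exact Poisson intervals and shares exact Clopper-Pearson intervals. Only the ratio intervals and the fold calls were tested on simulated data, which were pooled counts without spread between cells. Thinning drew molecules without replacement. All 16 listed Wnt ligands, the frizzled receptors, the lists and the 15 highest and 10 lowest ratios were considered for naming. Promoters were matched by symbol for 76 of 120 targets. Python 3.11.15, numpy 2.4.6, pandas 2.3.3, scipy 1.17.1 and matplotlib 3.10.9 were used.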

Additional observations from a re-analysis of the deposited data

Results flagged for a closer look

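For 11 targets reported here the Aspn/Postn stromal cells lay on one side of the other Ptprc = 0 cells by at least 2-fold at E18.5 and on the opposite side in adult BM. Over all 95 tested targets at E18.5, 20% were higher and 54.7% lower. In adult BM these shares were 33.7% and 29.8% of 104 targets. Whether 11 is more than these shares would give was not tested. The difference between the libraries was not tested, the adult values rest on 47 cells, and the other cells differ in kind between the libraries. Rspo2 had a ratio of 11.4 at E18.5 and 0.420 in adult BM. The 47 adult cells held only 17 Rspo2 molecules, 82.4% of them in 3 cells. The remaining 10 targets were lower at E18.5 and higher in adult BM. The cytoskeletal and smooth muscle genes Acta2 and Tagln had ratios of 0.0728 and 0.0950 at E18.5 and 4.28 and 23.9 in adult BM. By the rule, mural cells fell among the other cells. At E18.5 they held 15929 of the 16755 Acta2 and 5790 of the 6279 Tagln molecules of these other cells. The low E18.5 ratios of both genes were thus largely set by the rule. S100a4 had 0.187 and 21.2, Cdh13 0.201 and 3.22, and the Notch target Hey1 0.367 and 3.04. Of the adult Hey1 molecules, 70.7% were in 3 cells. The Wnt scaffold gene Axin1 had 0.405 and 3.43, and Ccar2 had 0.379 and 2.04. Without the rule targets the E18.5 ratios of Hey1, Axin1 and Ccar2 were 0.732, 0.808 and 0.757, no longer 2-fold lower. Wnt6 had 0.135 and 71.1, from only 4 molecules in the E18.5 and 13 in the adult Aspn/Postn cells. The mineralization gene Alpl had 0.0886 and 2.59, with 76.1% of its molecules in the 47 adult cells lying in 3 of them. Col10a1 had 0.00133 and 2.58, the latter almost wholly from 1 adult cell.

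Cells outside the comparisons also met part of the rule. In the library of sorted ECs at E18.5, 9 cells met all of it, with Ccn3 at 465 (388 to 553) and Wnt11 at 36.4 (17.4 to 66.8) per 10000. Bone genes were high in some of them, with Spp1 at 854, Mmp13 at 382 and Alpl at 374, seen in 2, 2 and 4 cells. Wnt2 had 1 molecule. Among E18.5 BM cells, 177 had at least 3 Aspn and 3 Postn molecules but also Ptprc, and 82 of these had exactly 1 Ptprc molecule.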

How the results depend on the processing

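No paired analysis was possible because each group is 1 library. The number of stromal cells was 395 with RSEC-adjusted molecules in the rule, in place of 805. Leaving the rule targets out of the denominator gave 31 targets at least 2-fold higher in place of 19, a summed Wnt ligand ratio of 7.70 to the other cells and of 3.14 to the adult cells. The ratio to the other cells, 3.86 as reported, was 3.37 with RSEC-adjusted molecules, 3.49 with a minimum of 5 Aspn and Postn, 4.67 with every cell weighted the same, 4.56 after thinning to 50 molecules, 3.53 without cells above the 99th percentile of molecules, 2.78 against other cells without Srgn and 3.34 against other cells without mural or endothelial cells. The ratio to the adult cells, 1.62 as reported, was 0.868 with every cell weighted the same and 0.747 after thinning, which also left 19 targets at least 2-fold lower in place of 32. The share of stromal cells with a ligand was 50.8% thinned to 100 molecules and 75% without thinning, and the share of Wnt2 cells with Wnt9a was 63.1% without thinning.

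Among single targets reported as at least 2-fold different, 9 recomputed ratios changed direction. Of those reported within 2-fold, 6 of 15 against the other cells and 1 of 5 against the adult cells stayed on one side of 1 in every setting. Against the other cells without Srgn, Axin1 was at 1.21 and Ccne1 at 1.0. Against the adult cells, Cxcl12, 3.45 as reported, was at 0.394 with RSEC-adjusted molecules, 0.737 with raw molecules and 0.392 with a minimum of 2 Aspn and Postn. Dkk2 was at 0.653 with every cell weighted the same, Wnt9a at 0.796 after thinning, and without the richest cell, a setting chosen after seeing the data, Col2a1 was at 2.36 and Col10a1 at 1.49. The causes were not tested. For 3 other ratios the compared cells held no molecule under a setting, so no value was given. All 18 recomputed targets at least 2-fold higher than in the other cells stayed above 1 in every setting tried. The settings with the most abundant amplicon only, with stromal cells with Ptprc admitted and without the 10 richest cells were also chosen after seeing the data. The 47 adult cells and targets with few molecules limit precision.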

Other observations

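The 177 cells with Aspn, Postn and Ptprc carried the targets of the stromal cells together with blood and smooth muscle genes. Their median depth was 287 molecules. Wnt2 was at 16.2 (13.2 to 19.8) per 10000, Rspo2 at 19 (15.6 to 22.8) and Ccn3 at 647 (626 to 667). Srgn, a proteoglycan gene of blood cells, was at 481 (464 to 499), against 10.3 in the Aspn/Postn stromal cells, and Acta2 was at 413 against 39.7. Unlike the stromal cells, these cells were not limited in Rgs5, Pecam1 or Kdr, so some would be mural or endothelial by those genes and the Acta2 levels are not like for like. These cells held 15.5% of the Wnt2 and 15.1% of the Rspo2 molecules of the library. Whether they are joined barcodes was not tested.

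Among the stromal cells, Notch3, a Notch receptor of mural cells, was seen in 51.4% of thinned cells with Acta2 and 16.6% of those without, and Tagln in 18.6% and 4.15%. The Notch target Hey1 was at 13.6 to 23.5 per 10000 in the 109 cells with Acta2, as an interval, and at 2.68 in the others, a ratio of 6.73. These stromal cells had fewer than 3 Rgs5 molecules by the rule.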
